A study of Mus musculus with 20 samples.

Results

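Liver RNA from mice that received glucagon together with T3 was compared with liver RNA from mice that received T3 alone. The 8 libraries, 4 per group, were taken by their treatment label from a series of 20, and all genes counted in them were examined. Each library came from 1 male mouse on a western diet that was treated daily for 16 days, so all groups share the diet, the sex and the length of treatment. The groups used are glucagon+T3, T3, glucagon and control (4 libraries each). A further 4 libraries coded Cp entered only the estimate of spread. The sources used here do not give the strain, the ages, the doses, the control injection or the hours between last dose and dissection. Glucagon+T3 against T3 asks what glucagon changes in a liver that is also receiving T3. Glucagon against control, which shares no library with it, gives the same addition without T3.

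Glucagon is a pancreatic hormone of the fasted state. It binds a receptor on hepatocytes that raises cyclic AMP, which activates protein kinase A and the transcription factor CREB, and through these the genes of glucose production and amino acid breakdown. T3 (triiodothyronine) is the active thyroid hormone and acts through nuclear receptors, in hepatocytes mainly thyroid hormone receptor beta, on genes of lipid, cholesterol and energy metabolism.

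Library totals ran from 9858877 to 14897657 counts in glucagon+T3 livers, against 6091917 to 7996156 counts in T3 livers, so the T3 values are the less precisely counted. All T3 libraries were sequenced in lane 5 and no other library was, whereas replicates 1 to 4 of each other group were in lanes 1 to 4. A difference between glucagon+T3 and T3 therefore cannot be told apart from a difference between those lanes, and the same holds for the difference of the effects of glucagon with and without T3. Between lanes 1 to 4, with the groups as a term, 3 of 12896 genes had an adjusted p under 0.05 and 1025 an unadjusted p under 0.05, which gives no value for lane 5. Hepatocyte markers were abundant in each library, with summed levels of the 7 tested of 8 listed genes between 97341 and 148636 CPM in glucagon+T3 livers, against 86026 to 128681 CPM in T3 livers. CPM are counts scaled to library size with TMM factors, changes are log2 ratios with their standard errors, and adjusted p-values are Benjamini-Hochberg values of edgeR's quasi-likelihood test over all 12907 genes tested. Replicates are separate mice.

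Glucagon added to T3 changed few genes, and most of those that changed were higher. At an adjusted p under 0.05, 179 of 12907 genes (1.39%) were called. Of these, 146 (1.13% of genes tested) were higher in glucagon+T3 livers and 33 (0.256%) were lower. These shares are the background for the counts of list members below. The median absolute log2 change of the called genes was 1.12, and in 176 of the 179 the libraries of the groups did not overlap. Such separation was seen for 918 genes higher (7.11%) and 662 genes lower (5.13%) among all genes tested. The count differed with the libraries fitted, and the cause was not tested. The fit pooled all 5 groups, whose biological coefficient of variation was 18.9% for glucagon+T3, 19.2% for T3, 25.8% for glucagon, 43.2% for control and 22.6% for Cp. Fitted alone, the 8 libraries gave 523 called genes of 11962 (4.37%), 316 higher (2.64%) and 207 lower (1.73%), among them 173 of the 179. The share of called genes that were higher was then 60.4%, against 81.6% in the pooled fit. Leaving out 1 library left 83 calls without glucagon+T3 replicate 1, 96 without glucagon+T3 replicate 2, 93 without T3 replicate 1, 93 without T3 replicate 2, 116 without T3 replicate 3 and 111 without T3 replicate 4.

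Several genes that cyclic AMP induces through CREB were higher. Of 29 tested members of this list, 5 were called higher in the pooled fit and none lower. The 5 were Nr4a3, Nr4a2, Crem, Sik1 and Ppargc1a. In the 8 libraries alone 6 members were called higher and 2 lower (Atf3 and Egr1). Over all genes that fit called 2.64% higher and 1.73% lower. The median log2 change of the list was 0.036, against -0.0021 for all genes, and 15 members were above 0. In glucagon livers 17 of the same 29 rose against control livers, with a median of 1.48, where 21.2% of all genes were called and 9.23% were called higher.

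Nr4a3 and Nr4a2 encode orphan nuclear receptors that fasting signals induce in liver. Nr4a3 (chr4:48045153-48086447, GRCm38) had 7.94, 5.66, 1.89 and 4.55 CPM in glucagon+T3 livers, against 1.10, 0.262, 0.590 and 0.320 CPM in T3 livers. These T3 values rest on 2 to 9 counts per library, and the groups did not overlap. The log2 change was 3.09 ± 0.45 (SE), adjusted p = 0.000578. Nr4a2 (chr2:57106830-57124003) had 6.46, 5.03, 4.03 and 4.36 CPM in glucagon+T3 livers, against 1.35, 1.44, 1.30 and 0.639 CPM in T3 livers. All 4 glucagon+T3 livers stood above all 4 T3 livers, with a log2 change of 2.05 ± 0.30 (SE), adjusted p = 0.000605. The third receptor of the family, Nr4a1, had 4.19 to 8.14 CPM in glucagon+T3 livers, against 6.07 to 14.6 CPM in T3 livers, a log2 change of -0.59 ± 0.35 (SE), adjusted p = 0.527, and was not called.

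Sik1 (salt-inducible kinase 1, a feedback inhibitor of the CREB coactivators) was the most abundant of these genes. It had 559.5, 476, 409 and 502 CPM in glucagon+T3 livers, against 76.6, 157, 153 and 144 CPM in T3 livers. T3 replicate 1 was the lowest of its group, and the groups were well separated, with a log2 change of 1.88 ± 0.30 (SE), adjusted p = 0.00147. Crem, whose short form ICER represses CREB targets, had 22.2, 20.9, 13.9 and 16.2 CPM in glucagon+T3 livers, against 3.56, 3.01, 5.66 and 6.87 CPM in T3 livers. Its log2 change was 1.95 ± 0.35 (SE), adjusted p = 0.00384. Ppargc1a, the coactivator PGC-1alpha of gluconeogenesis and mitochondrial biogenesis, had 16.9, 15.3, 11.5 and 12.7 CPM in glucagon+T3 livers, against 9.08, 6.16, 5.19 and 8.47 CPM in T3 livers. The groups did not overlap and the log2 change was 0.97 ± 0.19 (SE), adjusted p = 0.0118, but the call ended without glucagon+T3 replicate 1, T3 replicate 2 or T3 replicate 3 (adjusted p 0.0598 to 0.0688). The calls of Nr4a3, Nr4a2, Crem and Sik1 held in each alternative run.

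The promoters of Nr4a3, Nr4a2 and Ppargc1a are shown because these members rose and CREB binds the half-site TGACG. Crem and Sik1 rose as well, but Sik1 had no entry among the RefSeq promoters used and none is printed for Crem. Each promoter shown is a window of 300 bases around the RefSeq gene start (GRCm38.p6), written 5′ to 3′ on the gene's strand. Capitals mark TGACG or its reverse complement CGTCA.
Nr4a3 promoter, chr4:48045055-48045354, plus strand: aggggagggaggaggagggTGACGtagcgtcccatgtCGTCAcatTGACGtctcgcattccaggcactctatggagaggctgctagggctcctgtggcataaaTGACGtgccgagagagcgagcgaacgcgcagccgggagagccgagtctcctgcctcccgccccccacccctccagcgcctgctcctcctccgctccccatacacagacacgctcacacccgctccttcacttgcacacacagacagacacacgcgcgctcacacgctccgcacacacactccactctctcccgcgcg
Nr4a2 promoter, chr2:57123954-57124253, minus strand: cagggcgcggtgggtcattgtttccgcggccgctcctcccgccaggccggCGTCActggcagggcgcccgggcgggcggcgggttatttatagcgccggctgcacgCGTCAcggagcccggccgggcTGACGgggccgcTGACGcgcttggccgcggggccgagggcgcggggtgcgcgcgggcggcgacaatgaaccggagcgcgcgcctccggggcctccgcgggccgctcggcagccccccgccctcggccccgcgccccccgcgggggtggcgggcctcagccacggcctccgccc
Ppargc1a promoter, chr5:51567676-51567975, minus strand: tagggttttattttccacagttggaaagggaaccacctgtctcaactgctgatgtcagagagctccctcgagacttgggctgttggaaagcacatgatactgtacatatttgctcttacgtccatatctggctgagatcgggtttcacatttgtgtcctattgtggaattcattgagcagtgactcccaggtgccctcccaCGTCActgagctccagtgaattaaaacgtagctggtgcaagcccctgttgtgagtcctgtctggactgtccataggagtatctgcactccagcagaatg
The Nr4a3 window held 4 matches, whose first bases lie 231, 213, 205 and 147 bases before the RefSeq start, which is 152 bases downstream of the GENCODE start of the coordinates given above. The Nr4a2 window also held 4, at 200, 144, 123 and 111 bases before the start. The Ppargc1a window held 1, at 49 bases before the start. Among the 146 genes higher in glucagon+T3 livers, 103 had a promoter in the RefSeq table and 42 of these (40.8%) held TGACG on either strand. The share was 34.4% of the 9253 tested genes with a promoter and 23% of all 27025 promoters. The full palindrome TGACGTCA, which contains the half-site on both strands, was in 3.88%, 3.42% and 2.03% of the same sets. A match is a description of the letters and does not show a bound site.

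**Figure D1:**
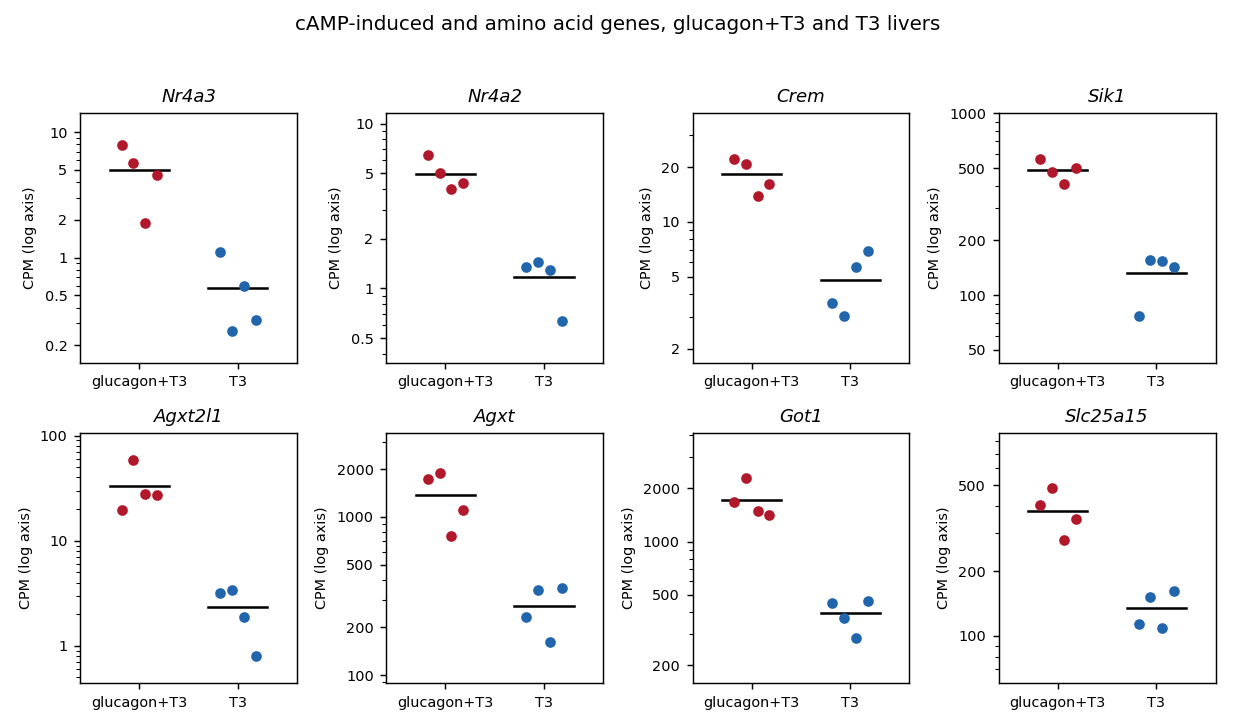
TMM-scaled CPM (log axis) of 4 genes induced by cyclic AMP and 4 genes from the amino acid breakdown and urea cycle lists in each glucagon+T3 liver (left) and T3 liver (right). Points are libraries and bars are means of 4, and in each panel all glucagon+T3 livers lie above all T3 livers, as for Slc25a15 with 277 CPM or more against 162 CPM or less.

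The genes of glucose production showed a small response. Of 26 tested genes of glucose production and its regulation, 3 were called higher and none lower, with a median log2 change of 0.16. The 3 were the enzyme gene Got1, the coactivator gene Ppargc1a and Sik1, the feedback inhibitor described above. Over all genes 1.13% were called higher. In the 8 libraries alone 5 members were called higher and 1 lower (Ldha), where 2.64% of all genes were called higher and 1.73% lower. In glucagon livers 13 of the 26 rose against control livers, with a median of 0.63, where 9.23% of all genes were called higher. Pck1, which encodes the phosphoenolpyruvate carboxykinase of the pathway, had 828 to 1532 CPM in glucagon+T3 livers, against 1330 to 2095 CPM in T3 livers. Its log2 change was -0.49 ± 0.27 (SE), adjusted p = 0.489, and the groups overlapped. G6pc, the catalytic subunit of glucose-6-phosphatase, had 527, 854, 618 and 737 CPM in glucagon+T3 livers, against 388, 364, 347 and 424 CPM in T3 livers. The groups did not overlap, yet the log2 change of 0.85 ± 0.22 (SE), adjusted p = 0.0666 missed the threshold in the pooled fit, and G6pc was called higher when the 8 libraries were fitted alone.

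Glycolysis and glycogen genes gave 1 call among 28 tested. Ppp1r3g, a glycogen-targeting subunit of protein phosphatase 1, had 32.8, 32.9, 17.2 and 11.9 CPM in glucagon+T3 livers, against 7.73, 1.70, 1.53 and 2.56 CPM in T3 livers. T3 replicate 1 was the highest of its group and still below each glucagon+T3 liver, and the log2 change was 2.80 ± 0.51 (SE), adjusted p = 0.00501. Ldha, the lactate dehydrogenase A subunit, had 91.0, 92.4, 111 and 134 CPM in glucagon+T3 livers, against 255, 224, 207 and 272 CPM in T3 livers. All glucagon+T3 livers lay below all T3 livers, but the log2 change of -1.16 ± 0.30 (SE), adjusted p = 0.0615 was not called. Ldha was called lower in the 8 libraries alone.

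Enzymes and carriers of amino acid breakdown and urea synthesis were among the genes that rose. Of 42 tested genes in the list of amino acid breakdown 5 rose and none fell, with a median log2 change of 0.24. Among the 5 were Agxt, Got1, Aass and Agxt2l1, which acts on phosphoethanolamine. Of 14 urea cycle genes 4 rose (Slc25a15, Slc25a22, Asl and Nags) and none fell, with a median of 0.53. Over all genes 1.13% were called higher and 0.256% lower. In glucagon livers 10 catabolic genes rose and 2 fell, and 3 urea cycle genes rose, where 9.23% of all genes were called higher and 11.9% lower.

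Agxt2l1 (chr3:130617448-130637521, named Etnppl in the annotation) encodes an enzyme that breaks down phosphoethanolamine. It had 19.5, 59.0, 28.0 and 27.4 CPM in glucagon+T3 livers, against 3.19, 3.41, 1.89 and 0.799 CPM in T3 livers. Its log2 change of 3.82 ± 0.45 (SE), adjusted p = 8.03e-05 was the highest among called genes averaging 20 CPM or more in either group, a limit it passed in glucagon+T3 livers and not in T3 livers. Agxt (chr1:93135240-93145421), alanine-glyoxylate aminotransferase, had 1736, 1888, 759 and 1103 CPM in glucagon+T3 livers, against 234, 343, 161 and 356 CPM in T3 livers. The lowest glucagon+T3 liver was above the highest T3 liver, and the log2 change was 2.33 ± 0.29 (SE), adjusted p = 0.000155. Got1 (chr19:43499752-43524605), the cytosolic aspartate aminotransferase, had 1675, 2278, 1496 and 1412 CPM in glucagon+T3 livers, against 452, 372, 287 and 461 CPM in T3 livers, with a log2 change of 2.13 ± 0.29 (SE), adjusted p = 0.000289.

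Aass, the entry enzyme of lysine breakdown, had 386 to 599 CPM in glucagon+T3 livers, against 124 to 243 CPM in T3 livers, and had a log2 change of 1.53 ± 0.26 (SE), adjusted p = 0.00273. The calls of Agxt2l1, Agxt, Got1 and Aass held in each alternative run. Tat, tyrosine aminotransferase and a classical glucagon target, had 716, 986, 646 and 784 CPM in glucagon+T3 livers, against 669, 978, 940.2 and 869 CPM in T3 livers. The groups overlapped and the log2 change was -0.14 ± 0.21 (SE), adjusted p = 0.852. Sds, serine dehydratase, had 352 to 742 CPM in glucagon+T3 livers, against 165 to 491 CPM in T3 livers, and also was not called (0.76 ± 0.29 SE, adjusted p = 0.240).

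Slc25a15 (chr8:22375551-22398597), the mitochondrial ornithine carrier of the urea cycle, had 406, 486, 277 and 347 CPM in glucagon+T3 livers, against 114, 152, 109 and 162 CPM in T3 livers. The groups were separated by a wide gap, and the log2 change was 1.496 ± 0.18 (SE), adjusted p = 9.47e-05. Slc25a22, a mitochondrial glutamate carrier, had 2006, 2226, 1448 and 1405 CPM in glucagon+T3 livers, against 796, 748, 545 and 748 CPM in T3 livers, with a log2 change of 1.32 ± 0.27 (SE), adjusted p = 0.0132. Its call ended without glucagon+T3 replicate 1, glucagon+T3 replicate 2 or T3 replicate 3 (adjusted p 0.0526 to 0.0586). Asl, argininosuccinate lyase, rose by a log2 change of 0.82 ± 0.18 (SE), adjusted p = 0.0275, with 579 to 862 CPM in glucagon+T3 livers, against 357 to 471 CPM in T3 livers. Asl was not called in 5 of the 8 fits without 1 library (adjusted p 0.0864 to 0.116), all but those without glucagon+T3 replicate 1, glucagon+T3 replicate 4 and T3 replicate 4. Nags makes the activator of carbamoyl phosphate synthesis and rose by a log2 change of 0.67 ± 0.15 (SE), adjusted p = 0.0341, with 134 to 178 CPM in glucagon+T3 livers, against 87.8 to 108 CPM in T3 livers. Nags was not called in 7 of the 8 fits without 1 library (adjusted p 0.0690 to 0.112), all but the one without glucagon+T3 replicate 4.

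Of 25 genes of methionine, serine and glycine metabolism, 2 rose and none fell. Cth, cystathionine gamma-lyase, had 279, 406, 215 and 265 CPM in glucagon+T3 livers, against 86.8, 148, 76.0 and 135 CPM in T3 livers, with a log2 change of 1.39 ± 0.24 (SE), adjusted p = 0.00275. Nnmt, which methylates nicotinamide, had 342, 451, 408 and 280.2 CPM in glucagon+T3 livers, against 86.7, 85.9, 129.9 and 199 CPM in T3 livers. The groups did not overlap and the log2 change was 1.56 ± 0.31 (SE), adjusted p = 0.0103, but the call ended without T3 replicate 1 or T3 replicate 2 (adjusted p 0.0557 to 0.0613). Of 21 amino acid transporters 1 rose, Slc16a10, which carries aromatic amino acids and thyroid hormones. It had 430.2, 401, 422 and 397 CPM in glucagon+T3 livers, against 176, 185, 204 and 218 CPM in T3 livers. The values within each group lay close together, and the log2 change was 1.08 ± 0.17 (SE), adjusted p = 0.00119. The calls of Cth and Slc16a10 held in each alternative run. Slc38a2, a transporter induced by cyclic AMP and by amino acid shortage, had 89.6 to 111 CPM in glucagon+T3 livers, against 116 to 143 CPM in T3 livers, with a log2 change of -0.39 ± 0.19 (SE), adjusted p = 0.429.

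Genes of lipid synthesis had calls in the pooled fit and in the 8 libraries alone. Over all genes the pooled fit called 1.13% higher and 0.256% lower. The 8 libraries alone called 2.64% of all genes higher and 1.73% lower. Of 25 cholesterol synthesis genes 1 rose, Pmvk (chr3:89454541-89469013), the phosphomevalonate kinase, and 3 rose in the 8 libraries alone (Pmvk, Mvk and Lss). Pmvk had 179, 153, 103 and 80.9 CPM in glucagon+T3 livers, against 22.8, 10.4, 14.9 and 8.63 CPM in T3 livers. Each glucagon+T3 liver held several times the level of each T3 liver, and the log2 change was 3.18 ± 0.35 (SE), adjusted p = 4.31e-05.

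Of 27 de novo lipogenesis genes Acly rose and Elovl3 fell, with a list median of 0.39 and 23 members above 0. In the 8 libraries alone 5 rose (Acly, Elovl6, Acss2, Acsl5 and Insig2) and Elovl3 fell, where 2.64% of all genes were called higher and 1.73% lower. Acly, the ATP citrate lyase that makes cytosolic acetyl-CoA, had 276, 383, 321 and 229 CPM in glucagon+T3 livers, against 105, 102, 91.5 and 80.7 CPM in T3 livers. Its log2 change was 1.67 ± 0.32 (SE), adjusted p = 0.00696, and the call held in each alternative run. Fasn, fatty acid synthase, had 848, 1408, 2692 and 967 CPM in glucagon+T3 livers, against 2165, 827, 965 and 543 CPM in T3 livers. Glucagon+T3 replicate 3 and T3 replicate 1 were high, the groups overlapped, and the log2 change was 0.39 ± 0.49 (SE), adjusted p = 0.814. Srebf1, which drives these genes, had 243 to 695 CPM in glucagon+T3 livers, against 289.9 to 439 CPM in T3 livers, with a log2 change of 0.0095 ± 0.35 (SE), adjusted p = 0.997. Elovl3, a fatty acid elongase, had 18.9, 14.3, 18.1 and 21.3 CPM in glucagon+T3 livers, against 36.4, 58.5, 46.6 and 52.9 CPM in T3 livers, with a log2 change of -1.42 ± 0.34 (SE), adjusted p = 0.0438, but was not called whichever 1 of the 8 libraries was left out (adjusted p 0.0594 to 0.160). Elovl3 overlaps Pitx3 on the other strand, and the strand setting of the counts is not given in the sources used here.

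Of 36 triglyceride and lipid droplet genes 3 rose and none fell. Plin5 coats lipid droplets in oxidative tissue and had 79.5, 92.4, 83.5 and 62.5 CPM in glucagon+T3 livers, against 38.5, 36.6, 39.2 and 35.8 CPM in T3 livers. The groups did not overlap, and the log2 change was 1.08 ± 0.16 (SE), adjusted p = 0.000900, a call that held in each alternative run. Plin4, another droplet coat protein, had 20.4 to 36.7 CPM in glucagon+T3 livers, against 6.55 to 15.6 CPM in T3 livers, with a log2 change of 1.33 ± 0.32 (SE), adjusted p = 0.0438. Plin4 was not called in 6 of the 8 fits without 1 library (adjusted p 0.0738 to 0.160), all but those without glucagon+T3 replicate 4 and T3 replicate 3. Plin4 is also a marker of fat cells, whose 9 tested markers summed to 530 to 748 CPM in glucagon+T3 livers, against 521 to 1347 CPM in T3 livers. Of these 9 markers, Plin4 included, 2 had a log2 change above 0, and the list median was -0.77. The part of fat cell RNA in the Plin4 change was not tested. Dgat1, the last step of triglyceride synthesis, had 40.8 to 51.0 CPM in glucagon+T3 livers, against 27.1 to 28.8 CPM in T3 livers, with a log2 change of 0.73 ± 0.18 (SE), adjusted p = 0.0485. Dgat1 was not called whichever 1 of the 8 libraries was left out (adjusted p 0.0696 to 0.154). None of 39 fatty acid oxidation genes was called, with a median of 0.15, and Cpt1a, the carnitine shuttle enzyme that glucagon is known to induce, had 486 to 633 CPM in glucagon+T3 livers, against 604 to 868 CPM in T3 livers, a log2 change of -0.41 ± 0.14 (SE), adjusted p = 0.187.

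**Figure D2:**
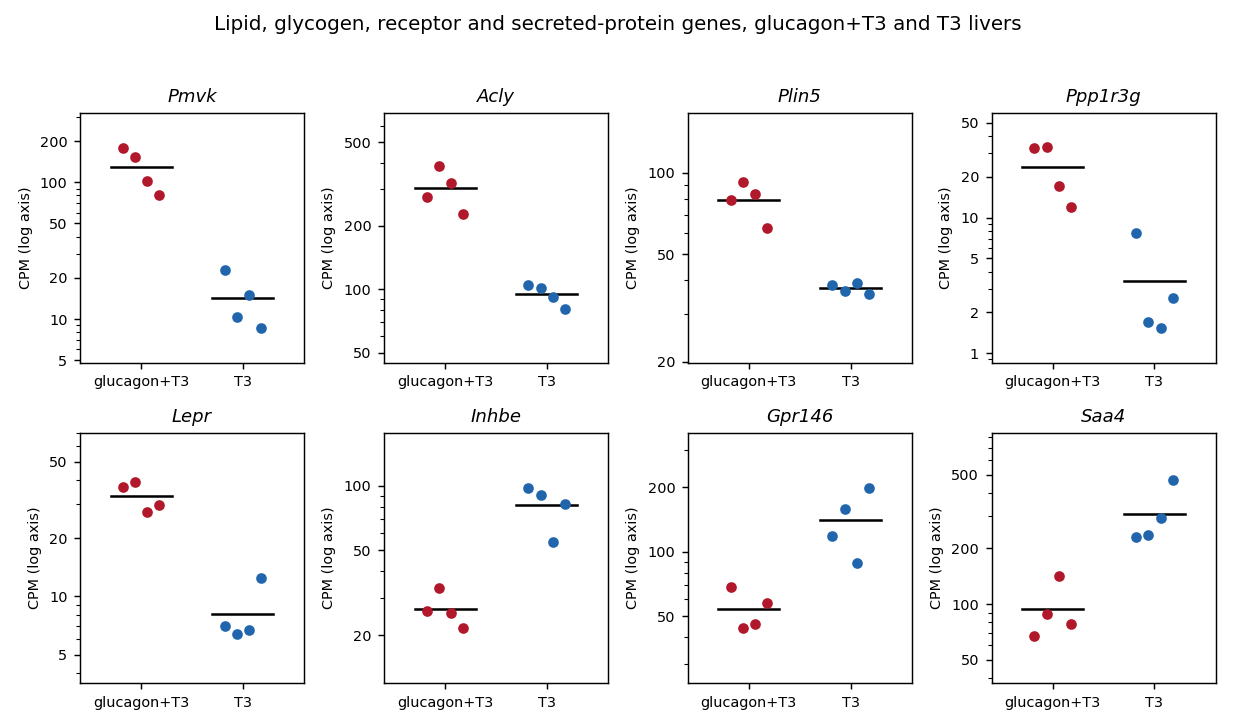
TMM-scaled CPM (log axis) of genes of lipid and glycogen metabolism, the leptin receptor and secreted or surface proteins in each glucagon+T3 liver (left) and T3 liver (right). Points are libraries and bars are means of 4; Pmvk lies between 80.9 and 179 CPM in glucagon+T3 livers, against 8.63 to 22.8 CPM in T3 livers, and Inhbe, Gpr146 and Saa4 run the other way.

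Of 30 genes of the TCA cycle and mitochondrial biogenesis 3 rose (Idh3a, Fh1 and Ppargc1a) and none fell, where 1.13% of all genes were called higher. The 8 libraries alone gave 5 higher and 1 lower, where 2.64% of all genes were called higher and 1.73% lower. In the pooled fit the list median was 0.27, and none of 37 respiratory chain genes was called. Idh3a, the catalytic subunit of isocitrate dehydrogenase, had 164, 168, 164 and 158 CPM in glucagon+T3 livers, against 76.6, 101, 110.3 and 90.0 CPM in T3 livers. The glucagon+T3 values were nearly equal, and the log2 change was 0.79 ± 0.15 (SE), adjusted p = 0.00959. The call of Idh3a ended without T3 replicate 1 (adjusted p 0.0518). Fh1, fumarase, had 286 to 372 CPM in glucagon+T3 livers, against 109 to 232 CPM in T3 livers, with a log2 change of 1.08 ± 0.26 (SE), adjusted p = 0.0456. Fh1 was not called in 7 of the 8 fits without 1 library (adjusted p 0.0724 to 0.163), all but the one without T3 replicate 4. Fh1 overlaps Kmo on the other strand.

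Of 32 tested genes that respond to thyroid hormone 4 rose (Slc16a10, Idh3a, Ppargc1a and Sdc1) and 1 fell (Dbp), where 1.13% of all genes were called higher and 0.256% lower. Dio1, the deiodinase that thyroid hormone induces in liver, had 489, 501, 511 and 390.2 CPM in glucagon+T3 livers, against 549, 433, 353 and 461 CPM in T3 livers. The groups overlapped, with a log2 change of 0.074 ± 0.30 (SE), adjusted p = 0.959. Thrsp, a lipogenic gene named for its response to thyroid hormone, had 1986 to 4091 CPM in glucagon+T3 livers, against 1390 to 2992 CPM in T3 livers, with a log2 change of 0.46 ± 0.56 (SE), adjusted p = 0.811. The malic enzyme gene Me1 had 103, 142, 142 and 145 CPM in glucagon+T3 livers, against 94.7, 69.3, 109 and 48.3 CPM in T3 livers, with a log2 change of 0.73 ± 0.31 (SE), adjusted p = 0.329. Thrb, the hepatic T3 receptor, had 16.0, 12.5, 14.5 and 17.1 CPM in glucagon+T3 livers, against 19.99, 24.3, 20.5 and 23.8 CPM in T3 livers, without overlap, but its log2 change of -0.56 ± 0.19 (SE), adjusted p = 0.187 was not called in the pooled fit, though it was in the 8 libraries alone. Sdc1, a heparan sulfate proteoglycan that takes up lipoprotein remnants, rose by a log2 change of 0.80 ± 0.19 (SE), adjusted p = 0.0438, with 116 to 177 CPM in glucagon+T3 livers, against 59.0 to 103 CPM in T3 livers. Sdc1 was not called in 6 of the 8 fits without 1 library (adjusted p 0.0662 to 0.186), all but those without glucagon+T3 replicate 4 and T3 replicate 4.

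Circadian clock genes changed in opposite directions. Of 26 tested clock genes 2 rose (Arntl and Cry1) and 2 fell (Nr1d1 and Dbp), where 1.13% of all genes were called higher and 0.256% lower. Arntl (chr7:113207465-113314126) encodes BMAL1, the activator of the clock, and had 29.6, 32.4, 20.6 and 25.8 CPM in glucagon+T3 livers, against 6.01, 5.37, 2.95 and 5.75 CPM in T3 livers. Its log2 change was 2.44 ± 0.28 (SE), adjusted p = 8.03e-05, and the call held in each alternative run. Cry1, a repressor of the clock, had 29.1, 36.5, 26.1 and 32.1 CPM in glucagon+T3 livers, against 10.9, 14.4, 11.3 and 16.0 CPM in T3 livers. The groups did not overlap, the log2 change was 1.24 ± 0.24 (SE), adjusted p = 0.0103, and the call ended without T3 replicate 1 (adjusted p 0.0551). Nr1d1 encodes REV-ERBalpha, a repressor of Arntl, and had 49.3, 62.1, 48.6 and 45.1 CPM in glucagon+T3 livers, against 182, 138, 70.8 and 99.2 CPM in T3 livers, with a log2 change of -1.26 ± 0.29 (SE), adjusted p = 0.0341. Dbp, an output transcription factor of the clock, had 133, 143, 152 and 101 CPM in glucagon+T3 livers, against 357, 567, 265 and 261 CPM in T3 livers, with a log2 change of -1.46 ± 0.35 (SE), adjusted p = 0.0384. Nr1d1 was not called in 6 of the 8 fits without 1 library (adjusted p 0.0583 to 0.139), all but those without T3 replicate 3 and T3 replicate 4. Dbp was not called in 6 of the 8 fits without 1 library (adjusted p 0.0662 to 0.159), all but those without T3 replicate 3 and T3 replicate 4. Nr1d1 overlaps Thra, and Dbp overlaps Sphk2, on the other strand. The hour of tissue collection per group is not given in the sources used here, and its part in these values was not tested.

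Genes of insulin and growth factor signalling gave 2 calls among 35. Irs1, the insulin receptor substrate, had 94.8, 90.2, 73.5 and 60.1 CPM in glucagon+T3 livers, against 42.2, 54.1, 31.7 and 42.5 CPM in T3 livers, with a log2 change of 0.90 ± 0.20 (SE), adjusted p = 0.0240. Irs1 was not called in 5 of the 8 fits without 1 library (adjusted p 0.0707 to 0.101), all but those without glucagon+T3 replicate 3, glucagon+T3 replicate 4 and T3 replicate 2. Grb10, an adaptor that dampens insulin receptor signalling, had 9.61 to 18.5 CPM in glucagon+T3 livers, against 5.27 to 8.26 CPM in T3 livers, with a log2 change of 1.31 ± 0.32 (SE), adjusted p = 0.0466. Grb10 was not called in 7 of the 8 fits without 1 library (adjusted p 0.0576 to 0.153), all but the one without glucagon+T3 replicate 3. Irs2 had 60.1, 61.8, 24.8 and 45.9 CPM in glucagon+T3 livers, against 34.7, 29.2, 7.43 and 38.7 CPM in T3 livers. Glucagon+T3 replicate 3 lay below 3 of the T3 livers, and the log2 change was 0.81 ± 0.43 (SE), adjusted p = 0.468.

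Of 25 hepatokine genes 1 was called, Inhbe (chr10:127348857-127354411), which encodes the subunit of activin E. It had 26.1, 33.3, 25.6 and 21.6 CPM in glucagon+T3 livers, against 98.1, 90.6, 54.5 and 81.8 CPM in T3 livers. All glucagon+T3 livers lay below all T3 livers, and the log2 change was -1.61 ± 0.26 (SE), adjusted p = 0.00155, with a call that held in each alternative run. Fgf21, a fasting hormone of the liver, had 30.8, 56.4, 25.7 and 50.6 CPM in glucagon+T3 livers, against 60.2, 94.4, 48.4 and 38.7 CPM in T3 livers. The groups overlapped, with a log2 change of -0.57 ± 0.69 (SE), adjusted p = 0.812. Saa4, a constitutive serum amyloid of lipoproteins, was the 1 acute phase gene called of 34, in a list whose median was -0.42. It had 67.5, 88.8, 141 and 78.1 CPM in glucagon+T3 livers, against 229.7, 235, 292 and 468 CPM in T3 livers, with a log2 change of -1.70 ± 0.38 (SE), adjusted p = 0.0287, but was not called in 5 of the 8 fits without 1 library (adjusted p 0.0567 to 0.114), all but those without glucagon+T3 replicate 3, T3 replicate 1 and T3 replicate 2. Saa genes share much sequence, and how reads that match several of them were counted is not given in the sources used here.

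Lepr (chr4:101717404-101815352), the leptin receptor gene, had 37.0, 39.1, 27.4 and 29.9 CPM in glucagon+T3 livers, against 6.99, 6.42, 6.72 and 12.5 CPM in T3 livers. T3 replicate 4 was the highest of its group and less than the lowest glucagon+T3 liver, and the log2 change was 2.04 ± 0.31 (SE), adjusted p = 0.00101. Mrap, an accessory protein of melanocortin receptors, had 266, 285, 394 and 255 CPM in glucagon+T3 livers, against 98.2, 91.1, 97.9 and 97.8 CPM in T3 livers. The T3 values were nearly equal, and the log2 change was 1.64 ± 0.22 (SE), adjusted p = 0.000252. Gabbr2, a subunit of the GABA-B receptor, had 24.04 to 43.1 CPM in glucagon+T3 livers, against 5.31 to 16.3 CPM in T3 livers, with a log2 change of 1.88 ± 0.38 (SE), adjusted p = 0.0127, and its call ended without T3 replicate 2, T3 replicate 3 or T3 replicate 4 (adjusted p 0.0576 to 0.0588).

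Adh7, an alcohol dehydrogenase that also oxidises retinol, had 36.8, 24.7, 22.0 and 21.5 CPM in glucagon+T3 livers, against 2.70, 4.06, 4.95 and 5.75 CPM in T3 livers. The log2 change was 2.60 ± 0.26 (SE), adjusted p = 1.50e-05. Emd, the inner nuclear membrane protein emerin, had 70.7, 63.7, 49.6 and 54.0 CPM in glucagon+T3 livers, against 15.1, 13.2, 16.3 and 16.1 CPM in T3 livers, with a log2 change of 1.97 ± 0.17 (SE), adjusted p = 2.97e-06. Srrd, known in mouse for a role in the clock and haem synthesis, had 35.1, 35.0, 28.8 and 31.6 CPM in glucagon+T3 livers, against 11.8, 8.13, 6.61 and 9.27 CPM in T3 livers, with a log2 change of 1.87 ± 0.17 (SE), adjusted p = 3.11e-06. Lrrc58 had 74.8, 86.4, 58.8 and 55.5 CPM in glucagon+T3 livers, against 18.5, 21.2, 17.8 and 24.5 CPM in T3 livers, with a log2 change of 1.75 ± 0.22 (SE), adjusted p = 0.000142. The calls of these 4 genes held in each alternative run, as did those of Lepr and Mrap. Every glucagon+T3 liver stood above every T3 liver, which the rule that named these genes required. Adh7, Emd and Srrd reached an average of 20 CPM only in glucagon+T3 livers, as did Lepr. Emd and Lrrc58 overlap pseudogenes on the same strand, and Srrd overlaps Tfip11 on the other strand.

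Among genes that fell, Gpr146, an orphan receptor of hepatocytes that is known to raise plasma cholesterol, had 68.6, 44.0, 46.3 and 57.6 CPM in glucagon+T3 livers, against 119, 159, 89.1 and 199 CPM in T3 livers. The log2 change was -1.39 ± 0.23 (SE), adjusted p = 0.00175. Bid, a death-promoting BCL-2 family member, had 16.0, 16.99, 18.9 and 23.4 CPM in glucagon+T3 livers, against 42.8, 36.0, 38.5 and 34.0 CPM in T3 livers, with a log2 change of -1.01 ± 0.17 (SE), adjusted p = 0.00187. Both groups of values were separate, as the naming rule required, and both calls held in each alternative run. Gpr146 and Bid each overlap a gene on the other strand. Paqr7, a membrane progestin receptor, fell by 1.20 on the log2 scale (adjusted p = 0.0132), and its call ended without T3 replicate 1 or T3 replicate 2 (adjusted p 0.0548 to 0.0588). Inca1, an inhibitor of cyclin-dependent kinase, fell by 0.98 (adjusted p = 0.0143), and its call ended without glucagon+T3 replicate 1, glucagon+T3 replicate 4 or T3 replicate 1 (adjusted p 0.0532 to 0.0787). The remaining genes of this rank were Enpp2 (-1.19, 0.0456), Cobl (-1.11, 0.0493), Arhgef10l (-1.11, 0.0218), Dnajc30 (-1.02, 0.0485) and Acnat1 (-0.88, 0.0341), given with the log2 change and the adjusted p. Enpp2 was not called in 6 of the 8 fits without 1 library (adjusted p 0.104 to 0.2), all but those without T3 replicate 1 and T3 replicate 3. Cobl was not called in 7 of the 8 fits without 1 library (adjusted p 0.0666 to 0.208), all but the one without T3 replicate 1. Arhgef10l was not called in 6 of the 8 fits without 1 library (adjusted p 0.0533 to 0.101), all but those without glucagon+T3 replicate 3 and T3 replicate 3. Dnajc30 was not called in 7 of the 8 fits without 1 library (adjusted p 0.0726 to 0.165), all but the one without T3 replicate 3. Acnat1 was not called in 7 of the 8 fits without 1 library (adjusted p 0.0601 to 0.129), all but the one without glucagon+T3 replicate 3.

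Of 29 genes that are higher in male than female mouse liver, 2 fell and none rose, with a median log2 change of -0.58. The called members were Elovl3, given above, and Hsd3b2, a steroid dehydrogenase, which had 0.651, 0.638, 1.07 and 0.557 CPM in glucagon+T3 livers, against 1.35, 6.16, 2.71 and 2.88 CPM in T3 livers. The log2 change of Hsd3b2 was -2.15 ± 0.52 (SE), adjusted p = 0.0438, but it was not called in 7 of the 8 fits without 1 library (adjusted p 0.0595 to 0.202), all but the one without T3 replicate 1, and reads of the Hsd3b family may be shared among its members. None of 21 tested female-biased genes was called, with a median of 0.24.

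No gene was called in the lists of the glucagon receptor and protein kinase A chain (30 tested), sterol uptake and efflux (30), bile acid metabolism (29), drug metabolism (52), the unfolded protein response (25), the interferon response (35), the cell cycle (35) or immediate early genes (30). Gcgr, the glucagon receptor gene, had 297, 299, 438 and 289 CPM in glucagon+T3 livers, against 528, 417, 333 and 455 CPM in T3 livers, with a log2 change of -0.39 ± 0.22 (SE), adjusted p = 0.507. A list of ATF4 stress targets gave 1 call of 24, which was Cth. Fitted alone, the 8 libraries gave calls of lower level for Jun, Jund, Egr1 and Atf3 among the immediate early genes. That fit called 1.73% of all genes lower.

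**Figure D3:**
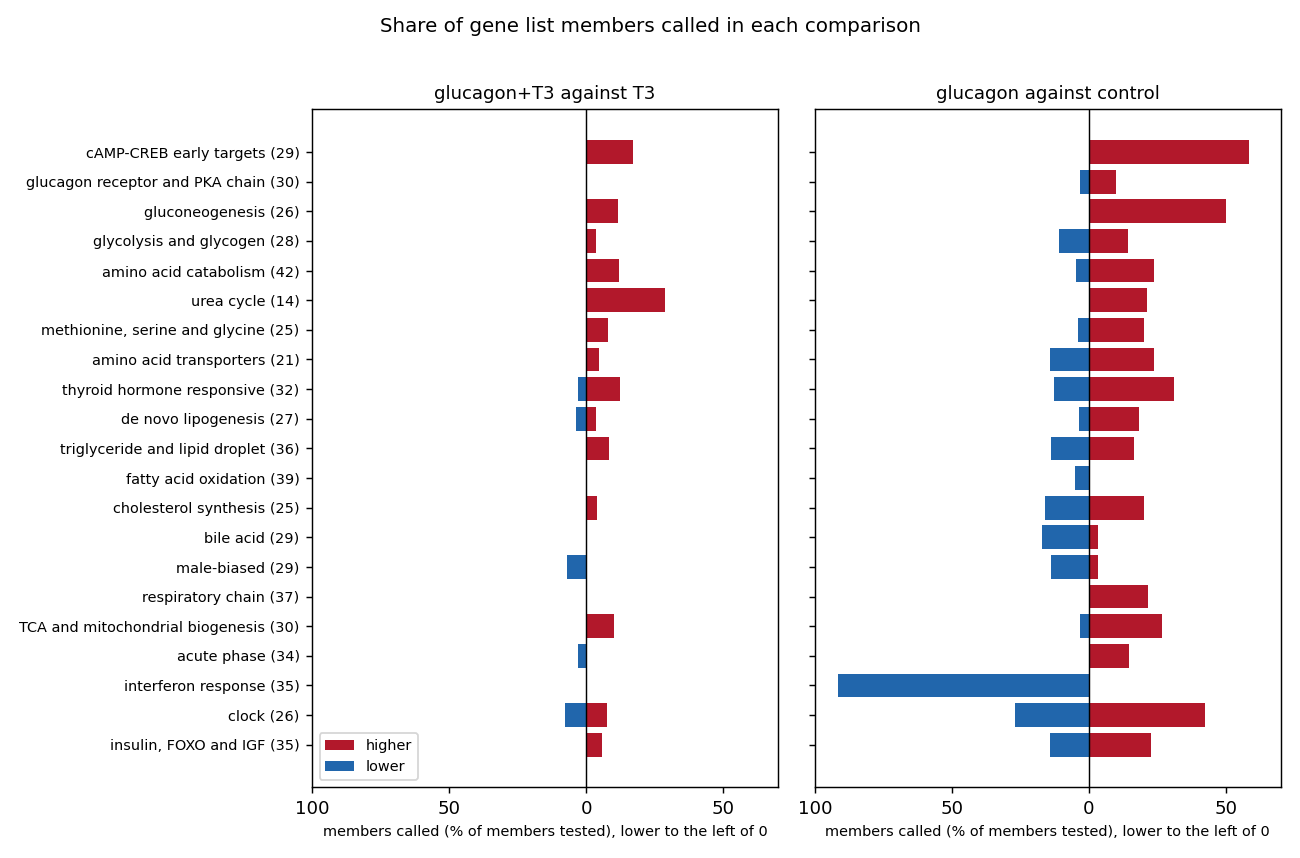
Share of tested members of each gene list (number tested in parentheses) called higher (right of 0) or lower (left of 0) at an adjusted p under 0.05, for glucagon+T3 against T3 (left panel) and glucagon against control (right panel). Over all genes 1.39% were called in the comparison with T3 and 21.2% in that with control; the urea cycle list reaches 4 of 14 in the left panel, and the interferon list reaches 32 of 35 lower in the right panel, a count that is 8 without control replicate 2.

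Markers of other cells of the liver were examined because whole tissue was sequenced. Of 28 tested Kupffer cell and macrophage markers (30 listed) 27 had a log2 change below 0, with a median of -0.44, and none was called. Their summed level was 1452 to 1711 CPM in glucagon+T3 livers, against 1902 to 2392 CPM in T3 livers, without overlap. Cd5l, a protein secreted by macrophages, had 119 to 151 CPM in glucagon+T3 livers, against 192 to 226 CPM in T3 livers, with a log2 change of -0.65 ± 0.21 (SE), adjusted p = 0.148. Cd5l, Cd68 and Fcer1g were called lower in the 8 libraries alone, where 1.73% of all genes were called lower. In bulk RNA fewer cells of a type and less RNA per cell cannot be told apart. The part of this lower summed level in the genes that fell, such as Saa4, was not tested.

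Endothelial markers gave 1 call of 22, the blood clotting factor carrier gene Vwf, which had 30.4, 44.0, 60.6 and 28.6 CPM in glucagon+T3 livers, against 16.8, 10.6, 23.1 and 8.63 CPM in T3 livers, with a log2 change of 1.46 ± 0.33 (SE), adjusted p = 0.0329. Vwf was not called in 5 of the 8 fits without 1 library (adjusted p 0.0724 to 0.127), all but those without glucagon+T3 replicate 1, glucagon+T3 replicate 4 and T3 replicate 3. The summed endothelial level was 1142 to 1238 CPM in glucagon+T3 livers, against 929 to 1467 CPM in T3 livers. Summed stellate cell and fibroblast markers (27 tested) ran from 1161 to 1586 CPM in glucagon+T3 livers, against 1283 to 1746 CPM in T3 livers. Summed bile duct markers (13 tested) ran from 235 to 286 CPM in glucagon+T3 livers, against 260 to 364 CPM in T3 livers. Lymphocyte and granulocyte markers (19 tested) summed to 175 to 309 CPM in glucagon+T3 livers, against 289 to 670 CPM in T3 livers. No member of these lists other than Vwf was called, and no tested marker was at 0 in every library. Skeletal muscle markers (19 tested) summed to 398 CPM in glucagon+T3 replicate 4 and to 17.6 to 32.8 CPM in the other glucagon+T3 livers, against 23.6 to 81.0 CPM in T3 livers, and none was called. Red cell markers (7 tested) summed to 105 to 184 CPM in glucagon+T3 livers, against 69.2 to 215 CPM in T3 livers. Exocrine pancreas markers (4 tested) summed to 116 to 174 CPM in glucagon+T3 livers, against 80.4 to 144 CPM in T3 livers. Only 1 of these 4 had a log2 change above 0, the median was -0.67, and Cela2a was called lower in the 8 libraries alone. Of 25 periportal hepatocyte markers 2 rose (Asl and Agxt2l1), and of 25 pericentral markers none was called, where 1.39% of all genes were called. The 8 libraries alone called 3 periportal markers and 1 pericentral marker (Oat) higher, where 2.64% of all genes were called higher. The 2 lists were not compared by a test.

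The genes called with T3 present mostly moved the same way when glucagon was given without T3. Of the 179, 166 (92.7%) had the same direction in glucagon against control, and 130 (72.6%) were called there in that direction. In glucagon against control itself 2732 genes (21.2%) were called, 1191 higher (9.23%) and 1541 lower (11.9%), and 4.76% of these were called in the same direction with T3 present. The median log2 change with T3 present was 0.27 for the genes raised by glucagon alone, whose median there was 1.00, and -0.21 for the genes lowered by glucagon alone, whose median was -0.96. These genes were chosen by their change without T3, which enlarges their medians in that comparison. A smaller median with T3 present is therefore partly set by the choice, and the medians do not measure the size of a loss. Directions matched in both settings for 75.2% of the 2732 genes, against 62.2% of all genes tested. The controls were the most variable group, and the counts of glucagon against control were 976 when its 8 libraries were fitted alone.

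The difference between the effects was tested directly, as the change in glucagon+T3 over T3 minus the change in glucagon over control. It was called for 482 genes (3.73%), 206 of them higher (1.6%) and 276 lower (2.14%). Without control replicate 3 the count was 821. Of the 2732 genes called in glucagon against control, 455 were called for the difference. Among the 179 genes called with T3 present, 45 were called for the difference, and 74 had a larger absolute change than in glucagon against control.

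**Figure D4:**
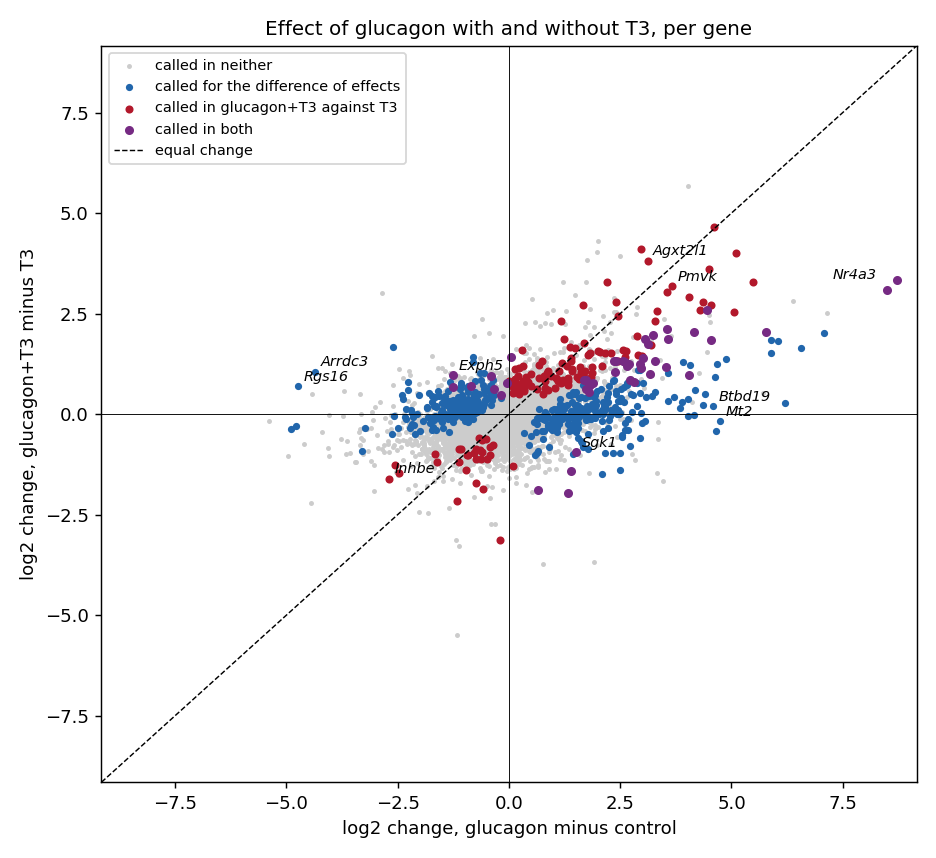
Log2 change of each of 12907 genes in glucagon+T3 over T3 (vertical axis) against that in glucagon over control (horizontal axis), with the dashed line marking equal change. Genes called for the difference of effects (blue, and purple where also called with T3 present) lie off the dashed line, such as Btbd19 at 0.20 on the vertical axis and 4.58 on the horizontal axis.

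Many genes induced by cyclic AMP had a smaller effect of glucagon with T3 present. Of the 29 listed, 10 had a lower effect with T3 present and 1 a higher, and without control replicate 2 the lower ones numbered 16. Over all genes the difference was called lower for 2.14% and higher for 1.6%. Nr4a3 had 135, 193, 169.7 and 137 CPM in glucagon livers, against 0.214, 0.628, 0.588 and 0.302 CPM in control livers. The log2 change without T3 was 8.50 ± 0.43 (SE), adjusted p = 5.22e-11. The difference was -5.41 ± 0.75 (SE), adjusted p = 0.000172. Nr4a2 had 117, 114, 67.5 and 57.2 CPM in glucagon livers, against 2.09, 1.64, 1.37 and 1.21 CPM in control livers, and its difference was -3.74 ± 0.42 (SE), adjusted p = 1.82e-05. Ppargc1a had 200.2, 190.1, 166 and 156 CPM in glucagon livers, against 13.5, 11.2, 9.41 and 8.98 CPM in control livers, with a difference of -3.07 ± 0.27 (SE), adjusted p = 1.48e-06. For Crem no difference was called (-0.93 ± 0.46 SE, adjusted p = 0.316). For Sik1 it was -1.70 ± 0.42 (SE), adjusted p = 0.0232, a call that ended without glucagon replicate 2 (adjusted p = 0.0575).

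Some glucagon targets showed a rise without T3 and none that was called with T3. Tat had 5679, 5758, 5130 and 5226 CPM in glucagon livers, against 2077, 1764, 1308 and 1410 CPM in control livers, a log2 change of 1.73 ± 0.22 (SE), adjusted p = 7.94e-06. The difference was -1.87 ± 0.30 (SE), adjusted p = 0.000698. Pck1 had 5601, 6757, 5379 and 5314 CPM in glucagon livers, against 1253, 1941, 2663 and 916 CPM in control livers, with a difference of -2.26 ± 0.39 (SE), adjusted p = 0.00153. Slc38a2 had 818, 751, 622 and 578 CPM in glucagon livers, against 119, 133, 137 and 67.8 CPM in control livers, with a difference of -2.99 ± 0.28 (SE), adjusted p = 2.10e-06. Btbd19, a BTB-domain protein gene, had 5.57, 5.58, 6.08 and 6.13 CPM in glucagon+T3 livers, against 4.91, 4.85, 4.60 and 6.07 CPM in T3 livers. Without T3 it had 134, 174, 161 and 154 CPM in glucagon livers, against 4.12, 11.4, 5.20 and 5.05 CPM in control livers. The glucagon livers stand apart from the other 3 groups, and the difference was -4.38 ± 0.33 (SE), adjusted p = 3.54e-07.

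The lowest differences at 20 CPM or more in at least 1 group also held Akr1b7, Mt2 and Tas1r2. Akr1b7, an aldose reductase family member, had 13.0, 34.7, 40.2 and 11.7 CPM in glucagon+T3 livers, against 7.60, 2.10, 19.2 and 2.08 CPM in T3 livers. Without T3 it had 133, 40.4, 101 and 125 CPM in glucagon livers, against 0.428, 2.17, 0.392 and 0.905 CPM in control livers, and the difference was -4.91 ± 0.91 (SE), adjusted p = 0.00295. The call of the Akr1b7 difference ended with limma-voom group weights (adjusted p = 0.222). Mt2, a metallothionein induced by glucocorticoids and zinc, had 139, 208, 198 and 112 CPM in glucagon+T3 livers, against 103, 23.2, 74.9 and 545 CPM in T3 livers. T3 replicate 4 was far above the other T3 livers, and the difference was -4.93 ± 1.15 (SE), adjusted p = 0.0164. Without that library the adjusted p was 0.06. Tas1r2, a sweet taste receptor subunit, had 1 or 2 counts in each T3 library, and its levels were 1.36, 1.76, 3.78 and 1.39 CPM in glucagon+T3 livers, against 0.123, 0.262, 0.236 and 0.160 CPM in T3 livers. Without T3 it had 45.2, 96.3, 83.8 and 85.8 CPM in glucagon livers, against 0.214, 0.193, 0.294 and 0 CPM in control livers.

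In the other direction stood genes that fell with glucagon without T3 and were not called with T3 present in the pooled fit. Arrdc3, an arrestin-domain protein that limits adrenergic signalling, had 97.2, 107, 146 and 103 CPM in glucagon+T3 livers, against 50.4, 50.7, 55.4 and 62.6 CPM in T3 livers. Without T3 it had 5.79, 3.36, 8.05 and 4.03 CPM in glucagon livers, against 158, 52.2, 84.9 and 140.4 CPM in control livers. With T3 the livers given glucagon were the higher, without T3 they were the lower, and the difference was 5.40 ± 0.44 (SE), adjusted p = 5.04e-07. The change with T3 present alone was not called in the pooled fit (1.05 ± 0.29 SE, adjusted p = 0.0825). It was called higher in the 8 libraries alone, with DESeq2, with limma-voom group weights, and without control replicate 2 and glucagon replicate 3. Rgs16, a regulator of G protein signalling, had 47.6, 82.6, 133 and 43.4 CPM in glucagon+T3 livers, against 94.9, 40.4, 30.2 and 24.3 CPM in T3 livers, and without T3 it had 12.0, 2.46, 2.59 and 3.83 CPM in glucagon livers, against 82.1, 26.6, 102 and 359 CPM in control livers. The difference was 5.43 ± 1.08 (SE), adjusted p = 0.00518.

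Cyp7a1, which catalyses the first step from cholesterol to bile acids, had 258, 541, 409 and 321 CPM in glucagon+T3 livers, against 109, 208, 286 and 278 CPM in T3 livers. Glucagon+T3 replicate 1 lay below T3 replicates 3 and 4, with a log2 change of 0.80 ± 0.43 (SE), adjusted p = 0.477. Without T3 Cyp7a1 had 12.3, 7.24, 12.0 and 48.8 CPM in glucagon livers, against 114, 86.4, 72.5 and 109 CPM in control livers, and the difference was 3.06 ± 0.62 (SE), adjusted p = 0.00619. Rnf144b, a ubiquitin ligase, had 38.4 to 56.7 CPM in glucagon+T3 livers, against 26.7 to 40.6 CPM in T3 livers. It had 8.71, 5.30, 5.03 and 4.53 CPM in glucagon livers, against 34.2, 30.8, 29.4 and 31.1 CPM in control livers, and the difference was 2.88 ± 0.28 (SE), adjusted p = 3.11e-06. Cyp2d37-ps, a pseudogene of a family with near-identical members, had a difference of 2.90 ± 0.59 (SE), adjusted p = 0.00647.

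**Figure D5:**
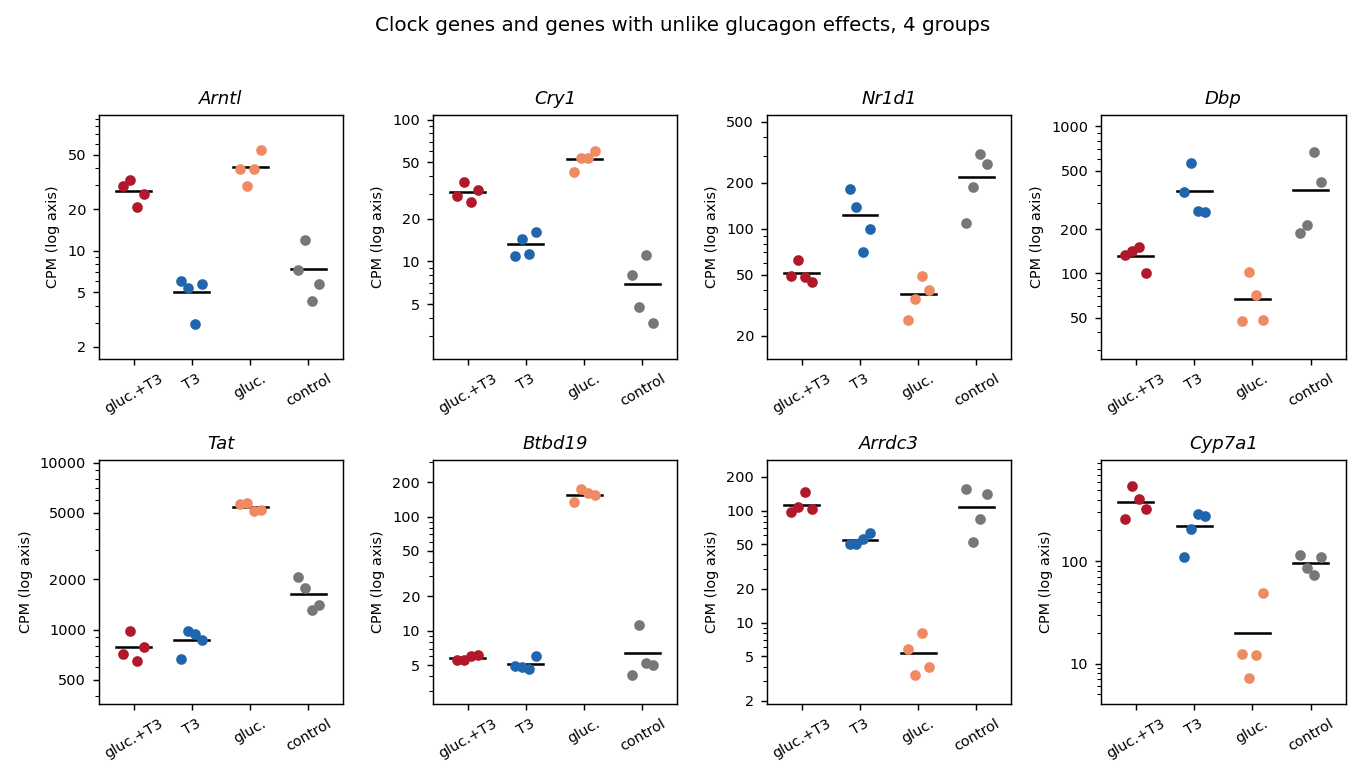
TMM-scaled CPM (log axis) of 4 clock genes and 4 genes whose response to glucagon differed, in glucagon+T3, T3, glucagon and control livers from left to right. Points are libraries and bars are means of 4; Arntl is higher and Nr1d1 lower in both groups given glucagon, while Tat and Btbd19 are highest in glucagon livers and Arrdc3 and Cyp7a1 are lowest there.

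The 4 called clock genes changed in the same direction in both settings. Arntl had 39.3, 29.8, 39.2 and 54.0 CPM in glucagon livers, against 7.22, 12.0, 4.31 and 5.73 CPM in control livers, a log2 change of 2.45 ± 0.27 (SE), adjusted p = 1.57e-06, and a difference of -0.012 ± 0.40 (SE), adjusted p = 0.994. Dbp had 47.3, 102, 71.9 and 47.9 CPM in glucagon livers, against 189, 214, 667 and 417 CPM in control livers, and the difference was 1.01 ± 0.48 (SE), adjusted p = 0.295. Nr1d1 had 25.3, 34.6, 48.8 and 39.8 CPM in glucagon livers, against 109, 187, 309 and 265 CPM in control livers, with a difference of 1.29 ± 0.41 (SE), adjusted p = 0.0897. For Cry1 the rise was larger without T3 (difference -1.70 ± 0.34 SE, adjusted p = 0.00566). Of the 26 clock genes 11 rose and 7 fell in glucagon livers, where 9.23% of all genes were called higher and 11.9% lower. The difference was lower for 8 and higher for 1, against 2.14% and 1.6% of all genes.

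For most of the genes named above from the amino acid breakdown and urea cycle lists no difference was called. The differences were 0.70 for Agxt2l1 (adjusted p = 0.567), -0.95 for Agxt (adjusted p = 0.225), -0.29 for Aass (adjusted p = 0.734) and -0.30 for Slc25a15 (adjusted p = 0.585). Got1 was called for a smaller effect with T3 (-1.44 ± 0.39 SE, adjusted p = 0.0457). That call ended in 12 of the 16 fits without 1 library (adjusted p 0.0509 to 0.102), and held without control replicates 2 and 4, T3 replicate 3 or glucagon+T3 replicate 2. It also ended when the compared groups were fitted alone and when control replicate 2 and glucagon replicate 3 were both left out. These p-values do not show that the effects are equal.

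For 6 of the 179 genes glucagon against control was called in the opposite direction. The 5 described here were chosen after their values were seen. Exph5, which links vesicles to the cell skeleton, had 68.9, 66.0, 49.0 and 51.3 CPM in glucagon+T3 livers, against 32.3, 35.4, 20.9 and 32.4 CPM in T3 livers. Without T3 it had 12.7, 9.90, 13.8 and 15 CPM in glucagon livers, against 43.6, 24.6, 30.9 and 23.2 CPM in control livers. The direction turned with T3, and the difference was 2.22 ± 0.29 (SE), adjusted p = 9.49e-05. S1pr1, a sphingosine phosphate receptor of endothelium, did the same, with a difference of 1.56 ± 0.24 (SE), adjusted p = 0.000591. Sgk1, a kinase induced by glucocorticoids, had 24.8, 30.7, 26.8 and 27.8 CPM in glucagon+T3 livers, against 48.9, 55.8, 64.4 and 42.7 CPM in T3 livers. Without T3 it had 158, 114, 104 and 78.2 CPM in glucagon livers, against 41.8, 44.2, 29.2 and 43.7 CPM in control livers, and the difference was -2.46 ± 0.33 (SE), adjusted p = 0.000116. Elovl3 had 406, 253, 248 and 486 CPM in glucagon livers, against 194, 57.7, 148 and 133 CPM in control livers, with a difference of -2.81 ± 0.48 (SE), adjusted p = 0.00137. 2310014L17Rik is named Rnf225 in the annotation and had 0.399 to 0.770 CPM in glucagon+T3 livers, against 1.47 to 3.04 CPM in T3 livers, where the T3 libraries held 12 to 20 counts, with a difference of -3.31 ± 0.64 (SE), adjusted p = 0.00444.

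In glucagon+T3 against T3 the calls of these genes were less stable. Exph5 was not called without glucagon+T3 replicate 1, glucagon+T3 replicate 2 or T3 replicate 3 (adjusted p 0.0735 to 0.0901). S1pr1 and Sgk1 were not called whichever 1 of the 8 libraries was left out (adjusted p 0.0807 to 0.154 for S1pr1 and 0.0572 to 0.16 for Sgk1). 2310014L17Rik was not called in 7 of the 8 fits without 1 library (adjusted p 0.0664 to 0.139), all but the one without T3 replicate 1, nor after thinning or with the replicate block. The calls for the difference held in each alternative for these 5 genes. As they were chosen for opposite calls in the 2 comparisons, a large difference follows from the choice and is no added support.

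For interferon response genes the comparison without T3 rested largely on control replicate 2. Of 35 tested, none was called with T3 present, with a median log2 change of -0.38, and 32 were called lower in glucagon than in control livers, with a median of -2.08. Over all genes 11.9% were called lower in glucagon than in control livers. Without control replicate 2 the calls were 8 and the median was -0.56. Their summed level was 1110 to 2064 CPM in glucagon+T3 livers, against 1400 to 2616 CPM in T3 livers. It was 573 to 918 CPM in glucagon livers, against 4794 CPM in control replicate 2 and 895 to 1108 CPM in the other control livers, whose range overlaps that of the glucagon livers. No member was called for the difference of effects, but 7 were without control replicate 3.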

How the data were processed

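Total liver RNA (Qiagen extraction, Lexogen libraries, per the labels' protocols) was sequenced. The deposited values are raw counts per gene symbol, which the authors obtained using HTSeq and build mm10 according to the submitters' processing notes. The sources used here name no version, aligner, annotation or strand setting. The files hold the same 13319 symbols for all 20 libraries, each with at least 20 counts in some library.

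Genes were filtered with filterByExpr (minimum count 10, minimum total 15), which kept 12907 and dropped 412. Counts were TMM-scaled and all 20 libraries were fitted with 5 group means by edgeR 4.0.16 in R 4.3.3 (quasi-likelihood, 15 residual and 5 prior degrees of freedom). Benjamini-Hochberg adjusted p-values under 0.05 were called. On simulated counts with known changes the same steps were tested. DESeq2 1.42.0, limma 3.58.1 voom with group weights, RLE factors, no filter, thinning to 6091917 counts, a replicate block, the compared groups alone, and left-out libraries were alternatives.

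Named genes are the 15 highest and 15 lowest called genes that average 20 CPM or more in either group and do not overlap, the 4 members of smallest p in each list, the 5 highest and 5 lowest differences, and a fixed panel, with only part of these printed. Lack of overlap was thus a condition for the 15 highest and 15 lowest and is no added result for them. Several of the 15 highest reached 20 CPM only in glucagon+T3 livers, among them Agxt2l1, Ppp1r3g, Adh7, Arntl, Lepr, Emd, Gabbr2 and Srrd. The genes, the lists and this rule were chosen with earlier results of these data known, and no set test was made. Symbols were matched by name to GENCODE M21 (GRCm38), where 12113 of 13319 were found, and to RefSeq promoters. No pair of same-group libraries agreed within sampling noise. The p-values rest on the spread between mice pooled over all 5 groups, not on that of the compared groups alone. They take no account of lane. That the libraries coded Cp are the hybrid molecule named in the series design was taken by elimination and affects no difference reported here. Some results are not reported here.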

Additional observations from a re-analysis of the deposited data

Results flagged for a closer look

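With 4 libraries per group, the highest or lowest library was compared with the others of its group in 208 sets of values, and 17 stood apart by Dixon's criterion, where chance gives about 1 in 20. In glucagon+T3 livers replicate 3 was high for Srebf1 (695 CPM, others 243 to 319), Gcgr (438 CPM, others 289 to 299) and Tas1r2 (3.78 CPM, others 1.36 to 1.76). Its summed acute phase genes were also high, at 56436 CPM against 30011 to 32156 CPM in the others. Replicate 1 was low for Me1 (103 CPM, others 142 to 145) and for summed Kupffer markers (1452 CPM, others 1686 to 1711). Replicate 4 was high for summed stellate markers (1586 CPM, others 1161 to 1191) and for summed skeletal muscle markers (398 CPM, others 17.6 to 32.8).

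In T3 livers replicate 1 was low for Sik1 (76.6 CPM, others 144 to 156) and high for Ppp1r3g (7.73 CPM, others 1.53 to 2.56) and for the stearoyl-CoA desaturase gene Scd1 (14185 CPM, others 6323 to 6532). Replicate 2 was low for Mrap (91.1 CPM, others 97.8 to 98.2). Replicate 3 was low for Ppara (464 CPM, others 616 to 636) and Dnajc30 (28.2 CPM, others 39.95 to 40.96) and high for Grb10 (8.26 CPM, others 5.27 to 5.64). Replicate 4 was high for Lepr (12.5 CPM, others 6.42 to 6.99) and Mt2 (545 CPM, others 23.2 to 103).

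The effect of glucagon with T3 minus that without T3 was called by edgeR's quasi-likelihood test for 30 of the genes described here. The log2 difference was negative for Nr4a3 (-5.41), Nr4a2 (-3.74), Nr4a1 (-3.55), Ppargc1a (-3.07), Sik1 (-1.70), Got1 (-1.44), Tat (-1.87), Slc38a2 (-2.99), Pck1 (-2.26), Elovl3 (-2.81), Plin4 (-1.97), Cry1 (-1.70), Adh7 (-1.85), Lepr (-2.12), Emd (-1.27), Srrd (-1.19), Lrrc58 (-1.38), Sgk1 (-2.46), Mt2 (-4.93), Akr1b7 (-4.91), Btbd19 (-4.38) and 2310014L17Rik (-3.31). The fitted value of Tas1r2 (-5.40) rests on 1 or 2 counts per T3 library and depends on the fit's handling of low counts. Its call ended without T3 replicate 2 or 3, after thinning and with limma-voom group weights. The calls of Adh7 and Akr1b7 ended with limma-voom group weights (adjusted p 0.119 and 0.222). The log2 difference was positive for Cyp7a1 (3.06), Rgs16 (5.43), Arrdc3 (5.40), Rnf144b (2.88), Cyp2d37-ps (2.90), Exph5 (2.22) and S1pr1 (1.56). All 30 involve the T3 libraries of lane 5.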

How the results depend on the processing

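No call of glucagon+T3 against T3 reversed, and 63 of 179 held in every alternative. Calls numbered 336 (252 higher, 84 lower) with DESeq2, 523 (316, 207) in the 8 libraries alone, 753 (444, 309) with limma-voom group weights, 117 (102, 15) after thinning, 177 with RLE factors, 179 with no filter, and 226 (170, 56) without control replicate 2 and glucagon replicate 3. Leaving out 1 library gave 83 to 135 calls (76 to 118 higher, 7 to 24 lower). Glucagon against control had 976 calls (613, 363) in its 8 libraries alone and 1304 (718, 586) with limma-voom, and 1988 to 3760 without 1 library. The difference of effects had 370 calls (136 higher) in the 16 libraries alone and 345 (131 higher) after thinning, and 343 to 821 (124 to 361 higher, 219 to 460 lower) without 1 library, 821 without control replicate 3. The cause of these shifts was not tested. With the replicate block the counts were 150, 2460 and 435 for the 3 comparisons. Replicate number marks no lane in T3 livers, and same-numbered glucagon+T3 and T3 libraries correlated at -0.25, 0.047, -0.088 and 0.031 after removal of group means, so the numbers pair nothing known. At 6091917 to 7996156 counts per T3 library, genes of few counts are poorly resolved there.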

Other observations

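Some genes of low level had large changes and were named after their values were seen. Olig1, a transcription factor best known from the oligodendrocyte lineage, had 17.7, 16.7, 9.61 and 8.72 CPM in glucagon+T3 livers, against 0.858, 1.049, 0.590 and 0.479 CPM in T3 livers. The T3 values rest on 3 to 8 counts per library, and the log2 change was 4.12 ± 0.54 (SE), adjusted p = 0.000250 (edgeR's quasi-likelihood test). Tmprss7, a membrane serine protease, had 10.9, 8.30, 7.64 and 8.26 CPM in glucagon+T3 livers, against 0.368, 0.131, 0.472 and 1.28 CPM in T3 livers. Its T3 libraries held 1 to 8 counts, and the log2 change was 4.01 ± 0.48 (SE), adjusted p = 9.47e-05. Both calls held in each alternative run.

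Bcat1, the cytosolic branched-chain aminotransferase, ran the other way and had 0.178, 0.319, 0.0822 and 0.928 CPM in glucagon+T3 livers, against 0.858, 4.85, 2.60 and 4.63 CPM in T3 livers. The log2 change was -3.13 ± 0.76 (SE), adjusted p = 0.0438, and it was not called in 6 of the 8 fits without 1 library (adjusted p 0.0709 to 0.160), all but those without glucagon+T3 replicate 4 and T3 replicate 1. Scd1 had 10771, 23721, 16689 and 13707 CPM in glucagon+T3 livers, against 14185, 6323, 6501 and 6532 CPM in T3 livers. With T3 replicate 1 high in its group, the groups overlapped and the log2 change was 0.95 ± 0.34 (SE), adjusted p = 0.211.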
